A study of Mus musculus with 8 samples.

Results

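The 8 genes described here encode the LIF receptor subunits (Lifr and Il6st), the kinase attached to them (Jak1), the transcription factor it activates (Stat3), the feedback inhibitor of the pathway (Socs3) and the 3 PIM kinases (Pim1, Pim2 and Pim3). They were taken as every probe set whose only annotated gene symbol was one of these names, which gave 23 probe sets of the 34945 with 1 symbol. Of these, 21 exceeded an expression minimum, a linear signal of 50 in 1 array or more, and averaging them by gene gave 8 of the 11940 genes tested. No probe set with several symbols held one of the 8 names. The 2 that stayed under the minimum were 1 of the 4 for Il6st (1421239_at) and 1 of the 4 for Stat3 (1459961_a_at).

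RNA was measured on 8 Affymetrix mouse expression arrays from V6.5 cells, a line of mouse embryonic stem cells (ESCs), in which a lentiviral cassette expressed a human WDR5 cDNA under doxycycline control. WDR5 is a core adaptor of MLL histone methyltransferases, and the cDNA was either wild type (WT) or F266A, a mutant of the surface that contacts long noncoding RNA. The 4 groups of 2 arrays were F266A -dox, F266A +dox, WT -dox and WT +dox, with doxycycline at 2 µg per mL in the +dox groups and withdrawn in the -dox groups. Every group also carried a constitutive shRNA against mouse Wdr5 and was kept on gelatin in medium with LIF, so intact endogenous Wdr5 expression and growth without LIF are not represented. No line without a WDR5 cDNA was measured. Loss of the cDNA's expression on withdrawal thus cannot be told apart from the removal of doxycycline itself. Each cDNA is represented by 1 infected, GFP-sorted line, so the mutation cannot be told apart from any other difference between the lines. The duplicates are called biological, but nothing says that they came from separate infections, and p-values measure the spread between these cultures only. The study's methods for RNA work on these lines give 6 days of culture with or without doxycycline, and the part on the arrays states no time of its own.

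LIF bridges LIFR and gp130, the product of Il6st, and the JAK1 bound to their tails then phosphorylates STAT3, which enters the nucleus and binds DNA. Socs3 is a direct STAT3 target whose product blocks gp130 and JAK1, which closes a negative feedback loop. The PIM proteins are serine/threonine kinases without an activation step of their own, so their activity follows their abundance, and in mouse ESCs the LIF and STAT3 axis sustains naive self-renewal. The arrays read mRNA and not phosphorylation.

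Promoter windows are shown for Socs3, Pim2 and Pim3, the members on which most of the differences below turn. They run from 250 bases before to 50 after a RefSeq transcript start in GRCm38.p6, 5′ to 3′ on the gene's strand. The Socs3 window is chr11:117969317-117969616 on the minus strand, inside the annotated gene (chr11:117966079-117970336), with a GC content of 73.3%. The Pim2 window is chrX:7878056-7878355 on the plus strand, with a GC content of 62.7%, and the gene spans chrX:7878306-7883432. The Pim3 window is chr15:88861944-88862243 on the plus strand, with a GC content of 69%, and the gene spans chr15:88862194-88865726. Capitals mark matches on either strand to the palindromic STAT motif TTCNNNGAA, the CCAAT box (CCAAT) and the GC box (GGGCGG).
Socs3: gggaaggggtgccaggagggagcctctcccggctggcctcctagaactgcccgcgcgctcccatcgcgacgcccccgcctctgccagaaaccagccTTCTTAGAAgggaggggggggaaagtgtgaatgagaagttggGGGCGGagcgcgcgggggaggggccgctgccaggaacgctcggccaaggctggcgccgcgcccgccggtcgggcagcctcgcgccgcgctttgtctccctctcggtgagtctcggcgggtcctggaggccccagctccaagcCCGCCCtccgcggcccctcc
Pim2: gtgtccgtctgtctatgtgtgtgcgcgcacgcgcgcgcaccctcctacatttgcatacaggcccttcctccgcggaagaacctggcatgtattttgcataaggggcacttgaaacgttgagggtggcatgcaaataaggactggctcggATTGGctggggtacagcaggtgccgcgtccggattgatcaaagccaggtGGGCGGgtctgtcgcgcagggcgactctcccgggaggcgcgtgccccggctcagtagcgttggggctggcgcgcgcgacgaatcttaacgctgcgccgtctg
Pim3: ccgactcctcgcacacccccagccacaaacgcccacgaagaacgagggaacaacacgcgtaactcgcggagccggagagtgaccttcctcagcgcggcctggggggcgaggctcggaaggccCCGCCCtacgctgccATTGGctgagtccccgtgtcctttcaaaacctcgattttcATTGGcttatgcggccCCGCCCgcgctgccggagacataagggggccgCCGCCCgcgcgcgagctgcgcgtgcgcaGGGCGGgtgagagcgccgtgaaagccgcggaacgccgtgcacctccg

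The STAT motif stood in the Socs3 window, at -154 from the transcript start, and in none of the other 9 windows of the 8 genes. Of all 32851 promoter windows of this length, 8.3% hold it, 37.4% hold a CCAAT box and 35.7% a GC box. The Pim2 window had 1 CCAAT box, at -101, and 1 GC box, at -52. The Pim3 window had CCAAT boxes at -113 and -73 and 4 GC boxes, and the Socs3 window had GC boxes at -112 and 31. The median GC content of all windows was 52.7%. These matches describe the letters in the windows only.

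Duplicate arrays correlated at 0.9969 to 0.9977 across probe sets and arrays of different groups at 0.9853 to 0.9958, and array medians lay between 5.36 and 5.39 on the log2 scale. The mouse Wdr5 probe set 1416581_at, for the gene targeted by the shRNA in all groups, read 10.30 and 10.39 in F266A -dox, 9.83 and 9.77 in F266A +dox, 10.62 and 10.57 in WT -dox and 9.68 and 9.70 in WT +dox, so it was higher without doxycycline in both lines. The other Wdr5 probe set, 1448389_at, read 8.32 and 8.15, 7.34 and 7.36, 8.28 and 8.13, and 7.02 and 6.94 in the same order of groups. It was thus also higher without doxycycline in both lines. Whether these probe sets also bind the human transgene transcript was not tested, so these values cannot be read as endogenous Wdr5 alone. All 8 ESC markers were above the minimum. Their summed linear signal was 45866 to 48233 in F266A -dox, 54717 to 54926 in F266A +dox, 56744 to 57801 in WT -dox and 60748 to 60883 in WT +dox. A linear sum weighs bright genes most, and Pou5f1, Zfp42, Tdgf1 and Utf1 had their highest group mean in WT -dox. By the threshold and comparisons given below, 0 of the 8 were called higher. Called lower were 2 between the induced lines, 3 on withdrawal in WT, 3 on withdrawal in F266A and 6 between the lines without doxycycline. Of all genes tested, 12.5%, 15.4%, 10.6% and 13.4% were called lower in this order. The 18S ribosomal RNA control (3′ probe set) followed the order of groups of the summed signal, with 10.12 and 10.27 in F266A -dox, 10.91 and 10.74 in F266A +dox, 11.32 and 10.97 in WT -dox and 11.42 and 11.25 in WT +dox. In bulk RNA, fewer cells of a type and less RNA per cell cannot be told apart.

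With the transgene induced, F266A ESCs had more Pim2 mRNA than WT ESCs and less Socs3 and Pim3 mRNA, while the 2 receptor subunits, Jak1, Stat3 and Pim1 were not called (F266A +dox minus WT +dox). Differences are log2 values ± SE from one limma fit of all 8 arrays, and a gene was called at a Benjamini-Hochberg adjusted p under 0.05. Thus 1 of the 8 genes was called higher and 2 lower, a share to be read against 28.3% of all genes tested (15.9% higher and 12.5% lower). The median of the 8 differences was -0.13, against 0.00 over all genes.

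On withdrawal of doxycycline in the WT line, Pim2 rose and Pim3 fell, and the other 6 genes were not called (WT -dox minus WT +dox). This comparison called 31.5% of all genes, 16.1% higher and 15.4% lower, and the median of the 8 genes was -0.03 against 0.00. Both comparisons share the WT +dox arrays, so calls found in both are not independent.

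On withdrawal of doxycycline in the F266A line, Pim2 rose again and Pim3 and Jak1 fell (F266A -dox minus F266A +dox). Here 19.5% of all genes were called, 8.94% higher and 10.6% lower, and the median of the 8 genes was -0.18 against 0.00. Between the lines without doxycycline (F266A -dox minus WT -dox), Pim2 was higher and Lifr, Il6st, Socs3 and Pim3 were lower, Il6st by a call that rested on dim probe sets. That comparison called 27.4% of all genes, 14.0% higher and 13.4% lower, and the median of the 8 genes was -0.29 against -0.01. The interaction of line and withdrawal, which asks whether withdrawal acted differently in the 2 lines, was called for Pim2 alone of the 8 genes and for 5.15% of all genes. Stat3 and Pim1 were called in none of these 5 comparisons.

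**Figure D1:**
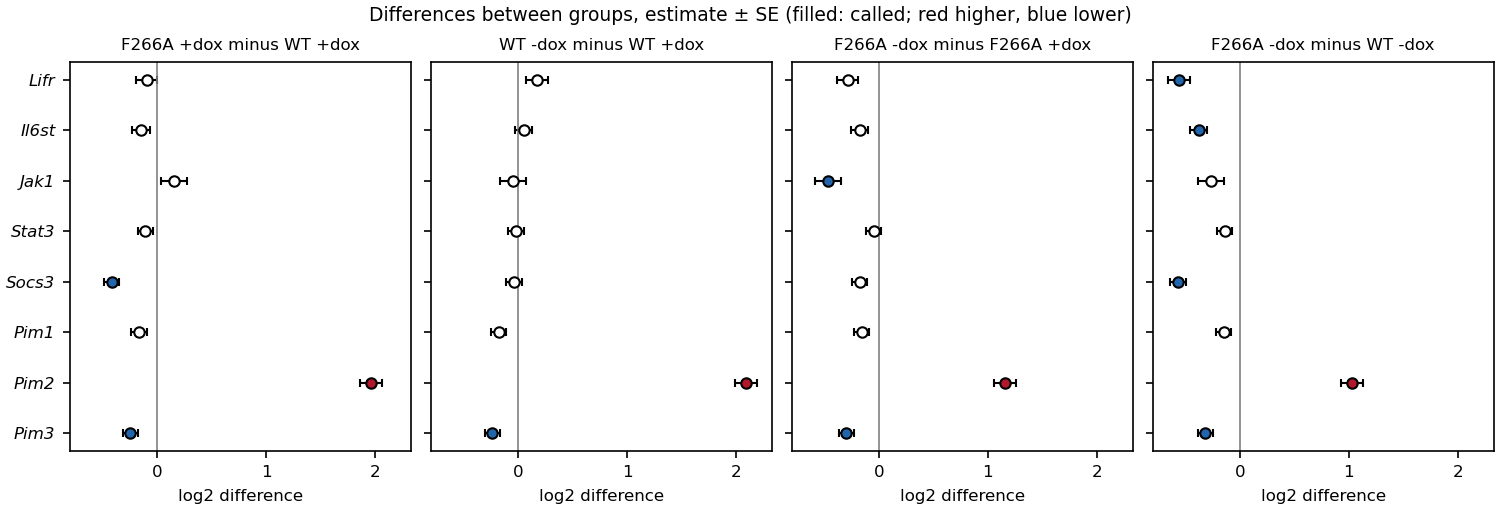
Log2 difference (horizontal axis) of each of the 8 genes (rows) in the 4 comparisons between groups (panels), as estimate ± SE from the limma fit, with red points called higher, blue points called lower and white points not called. Pim2 lies to the right in every panel, from 1.03 to 2.09, and every other point lies between -0.57 and 0.17.

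Pim2, the X-linked member of the PIM family, showed the widest range of the 8 genes. Its single probe set (1417216_at) read 10.61 and 10.32 in F266A -dox, 9.32 and 9.29 in F266A +dox, 9.40 and 9.48 in WT -dox and 7.44 and 7.25 in WT +dox. Both WT +dox arrays were the lowest and both F266A -dox arrays the highest, with the other 4 arrays close together between them. With the transgene induced, Pim2 was 3.89-fold higher in F266A than in WT (1.96 ± 0.10, limma adjusted p = 5.06e-06), rank 23 from the top of 11940 genes.

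On withdrawal Pim2 rose 4.26-fold in WT (2.09 ± 0.10, limma adjusted p = 4.08e-06), rank 6 from the top, and 2.23-fold in F266A (1.16 ± 0.10, limma adjusted p = 0.000282), rank 18. The rise in F266A minus that in WT was -0.93 ± 0.14 (limma adjusted p = 0.00923), so the gain on withdrawal was smaller in F266A. Without F266A +dox replicate 1 this difference was -0.92 with an adjusted p of 0.0524. Without doxycycline Pim2 was 2.04-fold higher in F266A than in WT (1.03 ± 0.10, limma adjusted p = 0.000126). No alternative setting ended any of these 4 calls between groups.

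Pim2 thus fell into 3 levels, with F266A +dox and WT -dox as neighbours that did not differ beyond their spread. Their difference was -0.13, with a 95% interval of -0.36 to 0.10 (limma adjusted p = 0.44), in a comparison that called 13.5% of all genes. The outermost groups, F266A -dox and WT +dox, differed by 3.12 ± 0.10 (8.68-fold, limma adjusted p = 1.04e-07), in a comparison that called 50.9% of all genes.

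Markers of the primed epiblast, the pluripotent state after implantation, moved alongside Pim2 in most comparisons, and those of neural cells did so in part. All 8 epiblast markers exceeded the minimum, and 8 were called higher and 0 lower between the induced lines, 8 and 0 on withdrawal in WT, 7 and 0 on withdrawal in F266A, and 6 and 1 between the lines without doxycycline. In the last of these, where Pim2 was higher, the homeobox gene Otx2 was lower (-0.36 ± 0.08, limma adjusted p = 0.00673) and Lef1 was not called (0.20 ± 0.14, limma adjusted p = 0.324). Fgf5 stayed under the minimum in both induced lines (5.31 and 4.86 in F266A +dox, 4.06 and 3.88 in WT +dox). Zic2 (4.93 and 4.95) and Sall2 (5.64 and 5.37) read at or under it in WT +dox. These genes passed the minimum through groups in which they were high, so their calls as higher are a description. The summed linear signal of the 8 was 6918 to 8361 in F266A -dox, 4347 to 4657 in F266A +dox, 5630 to 5738 in WT -dox and 2010 to 2148 in WT +dox. Of 8 neural markers 7 were on the array and 6 exceeded the minimum, with 2 called higher and 1 lower, 4 and 1, 4 and 0, and 4 and 0 in the same order of comparisons. The summed linear signal of the 7 was 3851 to 3854 in F266A -dox, 1998 to 2329 in F266A +dox, 1930 to 2180 in WT -dox and 880 to 894 in WT +dox, so that, as for Pim2, both middle groups lay between the outer ones. Nefl, the brightest of them, weighs most in this sum, with means of 10.65, 9.74, 9.61 and 8.2 in the same order of groups. Sox1 means ran the other way, at 5.43, 5.72, 5.71 and 6.08, and the Tubb3 mean was highest in WT -dox (8.23). Nefl and Nefm, which encode neurofilament subunits, were called higher in all 4 comparisons. Nefm read under the minimum in WT +dox (5.13 and 5.25), so its calls against that group are a description. Sox1 was called lower between the induced lines (-0.36, limma adjusted p = 0.0488) and on withdrawal in WT (-0.36, limma adjusted p = 0.0422). Pax6, Tubb3 and Map2 were not called between the induced lines. The part of these markers' shifts in the Pim2 differences was not tested. Of all other genes tested, the ones whose log2 values over the 8 arrays were most like those of Pim2 were Pou3f1 (Pearson r = 0.998), 2010204K13Rik (r = 0.998) and 1700123O20Rik (r = 0.997). Pou3f1, a POU transcription factor gene and itself one of the 8 epiblast markers, read 9.39 and 9.17 in F266A -dox, 8.47 and 8.36 in F266A +dox, 8.36 and 8.46 in WT -dox and 6.98 and 6.88 in WT +dox. The 8 points of such an r are 4 pairs of duplicates, and r is given as a description.

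**Figure D2:**
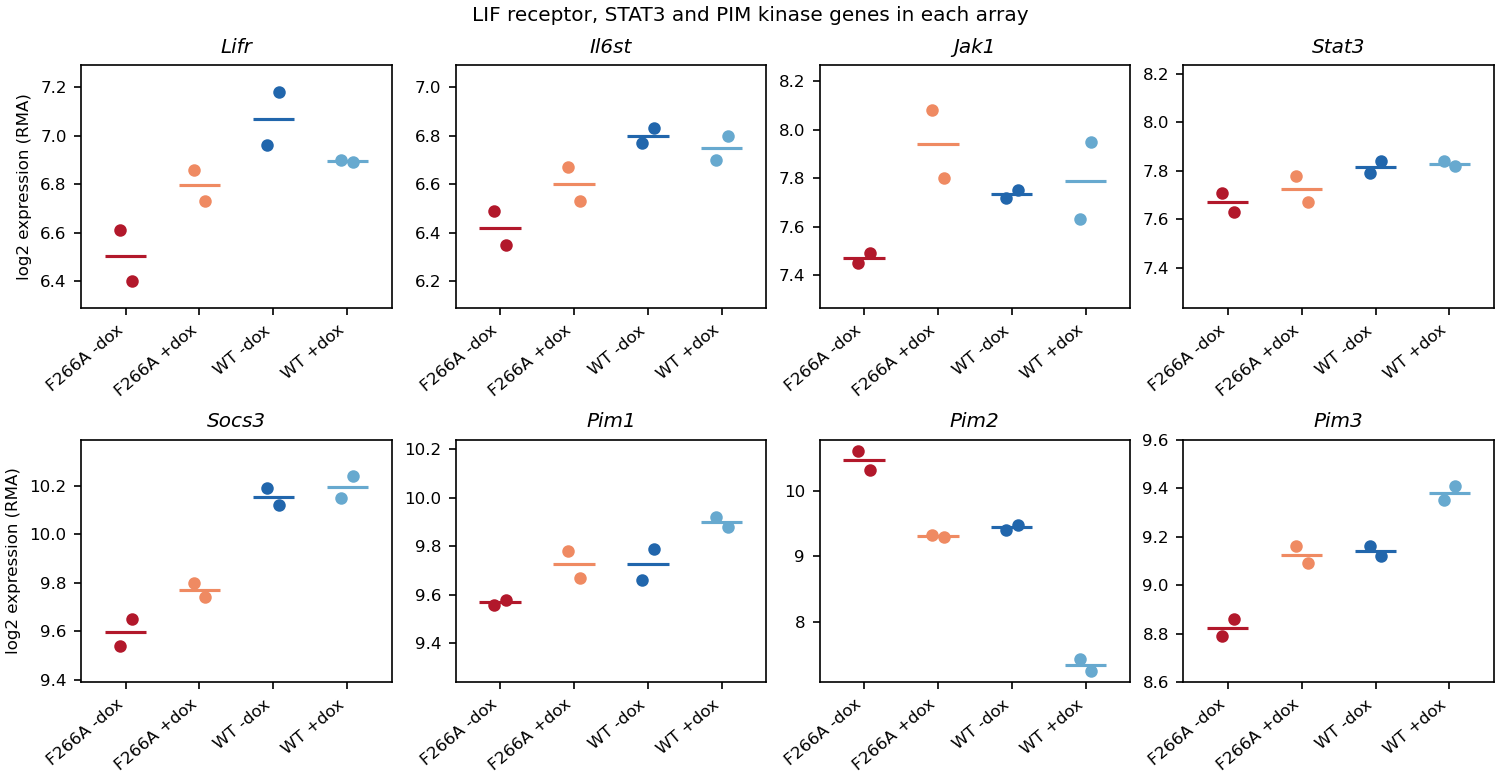
Log2 expression (vertical axis, RMA, separate range per panel) of the 8 genes as points, 1 per array, with group means as lines, groups from left to right F266A -dox, F266A +dox, WT -dox and WT +dox. Pim2 runs from 7.25 to 10.61, whereas Stat3 stays between 7.63 and 7.84, and the points of Socs3 part by line.

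Pim3, whose product has overlapping substrates with PIM2, was lowest where Pim2 was highest. It read 8.79 and 8.86 in F266A -dox, 9.16 and 9.09 in F266A +dox, 9.16 and 9.12 in WT -dox and 9.35 and 9.41 in WT +dox. The arrays of F266A +dox and WT -dox overlapped, at -0.01 with a 95% interval of -0.17 to 0.14, and the outer groups did not overlap with them. Over the 8 arrays r was -0.95 between Pim3 and Pim2. The means of Pim3 had the same order of groups as the 18S control given above, whose part in the Pim3 differences was not tested.

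Pim3 was lower by less than 2-fold in each comparison. The difference was -0.25 ± 0.07 between the induced lines (F266A over WT 0.84-fold, limma adjusted p = 0.0223) and -0.24 ± 0.07 on withdrawal in WT (0.85-fold, limma adjusted p = 0.0257). On withdrawal in F266A it was -0.30 ± 0.07 (0.81-fold, limma adjusted p = 0.0147), and between the lines without doxycycline -0.32 ± 0.07 (0.80-fold, limma adjusted p = 0.00796). The decline on withdrawal did not differ detectably between the lines (-0.07, 95% interval -0.28 to 0.15).

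The calls of Pim3 depended on single arrays. Between the induced lines the call ended when any 1 of the 4 arrays compared was left out, with adjusted p between 0.0524 and 0.113, and on withdrawal in WT likewise, between 0.0561 and 0.138. On withdrawal in F266A it ended without F266A +dox replicate 1 (adjusted p = 0.095) or F266A -dox replicate 1 (adjusted p = 0.0623), and between the lines without doxycycline it ended without WT -dox replicate 1 (adjusted p = 0.0585). The differences stayed between -0.42 and -0.21 throughout. The probe sets gave the same direction but not the same calls: 1451069_at was called in all 4 comparisons (-0.39, -0.27, -0.41 and -0.53 in the order above), the brighter 1437100_x_at in the 2 that involve F266A -dox (-0.30 and -0.31), and 1438956_x_at, close to the minimum, in none. Most like Pim3 over the 8 arrays were Hsf2bp (r = 0.995), Hacl1 (r = 0.995) and Klhl24 (r = 0.993).

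Pim1, the founding member of the family and a known STAT3 target, was not called in these comparisons. It read 9.56 and 9.58 in F266A -dox, 9.78 and 9.67 in F266A +dox, 9.66 and 9.79 in WT -dox and 9.92 and 9.88 in WT +dox. The WT +dox arrays were the highest and the F266A -dox arrays the lowest, and the middle groups overlapped. The difference was -0.17 between the induced lines and -0.18 on withdrawal in WT (limma adjusted p = 0.113 and 0.101), and both were called after quantile normalization (adjusted p = 0.0447 and 0.0372), the second also with a trended and robust variance prior (adjusted p = 0.043). It was -0.16 on withdrawal in F266A and -0.15 between the lines without doxycycline (limma adjusted p = 0.17 and 0.159). In the order of levels no neighbours were called, although the arrays of F266A +dox and WT +dox did not overlap and the 95% interval of their difference was -0.34 to -0.01. The outermost pair was called, with F266A -dox against WT +dox at -0.33 ± 0.07 (limma adjusted p = 0.00472). The 3 PIM genes thus differed in direction as well as in size, with Pim2 higher and Pim3 lower wherever both were called.

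Socs3, the feedback inhibitor, was called between the lines and not on withdrawal in either line. It read 9.54 and 9.65 in F266A -dox, 9.80 and 9.74 in F266A +dox, 10.19 and 10.12 in WT -dox and 10.15 and 10.24 in WT +dox. All 4 F266A arrays were below all 4 WT arrays. Socs3 was 0.75-fold in F266A relative to WT with the transgene induced (-0.42 ± 0.07, limma adjusted p = 0.00232) and 0.68-fold without it (-0.57 ± 0.07, limma adjusted p = 0.000513).

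Withdrawal gave -0.04 in WT (95% interval -0.20 to 0.13) and -0.18 in F266A (95% interval -0.34 to -0.02, limma adjusted p = 0.115), and the interaction was not called (-0.14 ± 0.10, limma adjusted p = 0.454). With a trended and robust variance prior the withdrawal difference in F266A was called (adjusted p = 0.0446). In the order of levels, the arrays of WT +dox and WT -dox overlapped, whereas those of F266A +dox and F266A -dox did not, and F266A +dox lay below WT -dox (-0.39 ± 0.07, limma adjusted p = 0.00791).

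All 3 Socs3 probe sets were called lower in F266A in both comparisons of the lines. With the transgene induced their differences were -0.53, -0.41 and -0.33, and without it -0.61, -0.60 and -0.49, the last of each for 1416576_at. The other 2 carry the suffix x, by which the array design marks probes that can also match other transcripts, as do 2 of the 3 probe sets of Pim3. No single array decided a call of Socs3 between the lines. Most like Socs3 over the 8 arrays were Gmnn (r = 0.991), Aldh3b1 (r = 0.988) and Slc17a9 (r = 0.987), and Gmnn, which encodes the replication inhibitor geminin, spanned only 11.49 to 11.74.

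Other measures separated the lines too. Of 10 fibroblast markers 9 were on the array and 3 exceeded the minimum (Col1a2, Twist1 and Tagln). The summed linear signal of the 9 was 4182 to 5267 in F266A -dox, 3499 to 3830 in F266A +dox, 1455 to 1551 in WT -dox and 993 to 1048 in WT +dox. Tagln made up most of this sum in every group. Twist1 reached 5.65 at most, and Col1a2 was not called between the induced lines (0.27, limma adjusted p = 0.232). The defining collagens Col1a1 and Col3a1, with Thy1, Postn, Dcn and Lum, stayed under the minimum, and Tagln, an actin-binding protein gene that other cells also express, read 11.93 and 12.27 in F266A -dox, 11.80 and 11.66 in F266A +dox, 10.25 and 10.36 in WT -dox and 9.67 and 9.57 in WT +dox. The excess of the 3′ over the 5′ signal of Gapdh, which reflects how intact the RNA was, lay at 0.14 to 0.16 in F266A arrays and 0.10 to 0.13 in WT arrays, and that of Actb 0.53 to 0.63 in F266A arrays and 0.69 to 0.74 in WT arrays. The 18S control was also lower in every F266A array than in every WT array, at 10.12 to 10.91 against 10.97 to 11.42 (3′ probe set). The group means of Socs3 had the same order as those of 18S. The part of these measures in the Socs3 difference was not tested.

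Lifr, the LIF-binding receptor subunit, was lower in F266A than in WT once doxycycline was withdrawn. As the mean of 3 probe sets it read 6.61 and 6.40 in F266A -dox, 6.86 and 6.73 in F266A +dox, 6.96 and 7.18 in WT -dox and 6.90 and 6.89 in WT +dox. The F266A -dox arrays were below all the others, and the F266A +dox arrays were below both WT groups by less. Without doxycycline the difference between the lines was -0.56 ± 0.10 (0.68-fold, limma adjusted p = 0.00269), and no alternative ended this call. With the transgene induced it was -0.10 (95% interval -0.32 to 0.12).

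Only 1 of the 3 probe sets averaged for Lifr was well above the minimum. That probe set, 1454984_at, read 8.77 and 8.48 in F266A -dox, 9.14 and 9.07 in F266A +dox, 9.48 and 9.37 in WT -dox and 9.44 and 9.53 in WT +dox, with no overlap between any F266A array and any WT array. Its difference was -0.38 ± 0.10 between the induced lines (limma adjusted p = 0.0266), -0.48 ± 0.10 on withdrawal in F266A (limma adjusted p = 0.0167) and -0.80 ± 0.10 between the lines without doxycycline (limma adjusted p = 0.000925). On withdrawal in WT it was not called (-0.06, limma adjusted p = 0.696). The dimmer 1425107_a_at was lower in F266A -dox than in F266A +dox (-0.43) and WT -dox (-0.59), and 1450207_at exceeded the minimum in 1 array only, WT -dox replicate 2. In the order of levels of the gene mean, WT -dox, WT +dox and F266A +dox came first, with 95% intervals between neighbours that included 0. F266A -dox lay at the bottom, at -0.29 relative to F266A +dox (95% interval -0.51 to -0.07, limma adjusted p = 0.0656), and this difference was called without WT -dox replicate 2 (-0.46, adjusted p = 0.011) or without F266A -dox replicate 1 (-0.39, adjusted p = 0.0403).

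Over single probe sets, 24.9% of 20046 were called between the induced lines, 27.5% on withdrawal in WT, 15.2% on withdrawal in F266A, 21.8% between the lines without doxycycline and 2.71% for the interaction. Of the 21 probe sets of these 8 genes, that of Pim2 was called higher in each of the first 4 comparisons, and 5, 1, 5 and 9 were called lower in this order. The 9 include the Il6st probe sets 1437303_at and 1460295_s_at, which exceeded the minimum in WT arrays only. The interaction was called for Pim2 alone.

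**Figure D3:**
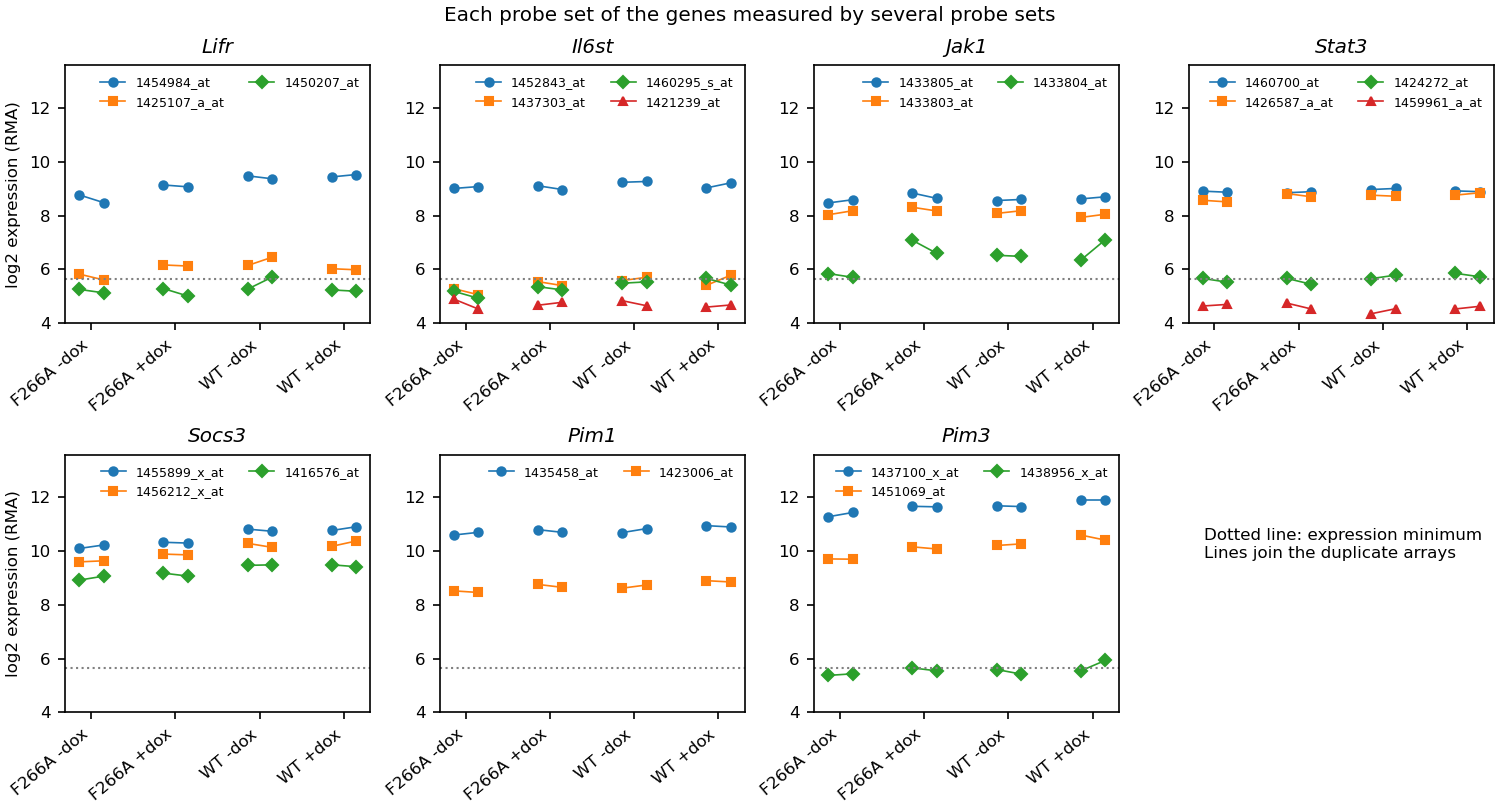
Log2 expression (vertical axis, RMA) of every probe set of the 7 genes with several probe sets in each array, groups from left to right F266A -dox, F266A +dox, WT -dox and WT +dox, with a line joining the duplicates of a group and a dotted line at the expression minimum (5.64). The 3 probe sets of Socs3 move in parallel. In Lifr and Il6st the dim probe sets lie near the minimum, and in Jak1 the dimmest runs from 5.7 to 7.1 and moves apart from the bright ones.

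Il6st, which encodes the shared signal transducer gp130, had a call that rested on dim probe sets. Its gene mean was 6.49 and 6.35 in F266A -dox, 6.67 and 6.53 in F266A +dox, 6.77 and 6.83 in WT -dox and 6.70 and 6.80 in WT +dox. The F266A -dox arrays were the lowest and overlapped with no other group. The difference from WT -dox was -0.38 ± 0.08 (0.77-fold, limma adjusted p = 0.00797), and the other 3 comparisons gave -0.15 (induced lines), 0.05 (withdrawal in WT) and -0.18 (withdrawal in F266A), none of them called.

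The bright Il6st probe set, 1452843_at, had 9.01 and 9.08 in F266A -dox, and WT -dox had 9.24 and 9.27, a difference of -0.21 that was not called (limma adjusted p = 0.131). The called probe sets were 1437303_at (-0.48), over the minimum in 2 arrays, and 1460295_s_at (-0.45), over it in 1. These arrays were all WT, so both probe sets entered the test through the line in which they were high, and their lower values in F266A are a description. Without an expression filter the gene gave -0.29 (adjusted p = 0.047). With a minimum of 100 the gene gave -0.21 (adjusted p = 0.0734), without WT -dox replicate 2 it gave -0.35 (adjusted p = 0.0569), and without F266A -dox replicate 2 it gave -0.31 (adjusted p = 0.0544). From the highest level down, WT -dox, then WT +dox, then F266A +dox, then F266A -dox, no neighbours were called and the 95% intervals between them included 0.

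Jak1, the receptor-bound kinase, was called only on withdrawal in F266A. It read 7.45 and 7.49 in F266A -dox, 8.08 and 7.80 in F266A +dox, 7.72 and 7.75 in WT -dox and 7.63 and 7.95 in WT +dox. The F266A -dox arrays were the lowest, and the WT +dox arrays spanned those of WT -dox. The difference from F266A +dox was -0.47 ± 0.12 (0.72-fold, limma adjusted p = 0.0203). It rested on 1 of 3 probe sets, 1433804_at, with values of 5.84 and 5.70 in F266A -dox, while F266A +dox had 7.08 and 6.59 (-1.07 ± 0.23, limma adjusted p = 0.0169).

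The brightest Jak1 probe set gave -0.22 (adjusted p = 0.106). The gene's call ended without F266A +dox replicate 1 (-0.34, adjusted p = 0.147), without F266A -dox replicate 1 (-0.45, adjusted p = 0.0698) or without F266A -dox replicate 2 (-0.49, adjusted p = 0.0635). Between the lines Jak1 gave 0.15 with the transgene induced and -0.27 without it (limma adjusted p = 0.37 and 0.116), and the second was called when only those groups were fitted (adjusted p = 0.033). From the highest level (F266A +dox) through WT +dox, then WT -dox, to the lowest (F266A -dox), no neighbours were called. The lowest step, F266A -dox against WT -dox, had no overlapping arrays and a 95% interval of -0.53 to -0.01.

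Stat3, the transcription factor at the centre of the pathway, had the narrowest range of the 8 genes. It read 7.71 and 7.63 in F266A -dox, 7.78 and 7.67 in F266A +dox, 7.79 and 7.84 in WT -dox and 7.84 and 7.82 in WT +dox. The F266A arrays were all below the WT arrays, by little. The differences were -0.11 (95% interval -0.26 to 0.05) between the induced lines, -0.02 (-0.17 to 0.14) on withdrawal in WT, -0.05 (-0.21 to 0.10) on withdrawal in F266A and -0.14 (-0.30 to 0.01) between the lines without doxycycline. No pair of neighbouring groups differed beyond the spread, and of these intervals the one farthest from 0 reached -0.30. The outermost pair, F266A -dox against WT +dox, was not called either (-0.16, 95% interval -0.31 to -0.00, limma adjusted p = 0.0836).

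Of the known LIF and STAT3 target genes, 19 of 20 were measured, and they moved in both directions. Between the induced lines 7 were called higher and 5 lower, on withdrawal in WT 6 and 5, on withdrawal in F266A 4 and 3, and between the lines without doxycycline 8 and 5. Over all genes tested the shares called higher and lower were 15.9% and 12.5%, 16.1% and 15.4%, 8.94% and 10.6%, and 14.0% and 13.4%. The list's median differences were -0.01, 0.06, 0.08 and -0.02 in this order, against 0.00, 0.00, 0.00 and -0.01 over all genes.

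Myc, the transcription factor gene of growth and proliferation, read 8.97 and 8.84 in F266A -dox, 7.88 and 7.67 in F266A +dox, 8.47 and 8.41 in WT -dox and 5.84 and 6.09 in WT +dox. No 2 groups overlapped, and the group means had the order of those of Pim2. Myc was higher by 1.81 ± 0.10 in F266A than in WT with the transgene induced (limma adjusted p = 6.48e-06), by 2.47 ± 0.10 on withdrawal in WT (limma adjusted p = 1.89e-06) and by 1.13 ± 0.10 on withdrawal in F266A (limma adjusted p = 0.000294). Between the lines without doxycycline it was higher by 0.47 ± 0.10 (limma adjusted p = 0.00858), a call that ended without WT -dox replicate 2 (0.44, adjusted p = 0.0529).

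Klf4, a STAT3-induced factor of the naive state, went the other way, with 10.83 and 10.85 in F266A -dox, 11.76 and 11.78 in F266A +dox, 11.55 and 11.64 in WT -dox and 12.07 and 12.22 in WT +dox. Its groups did not overlap either. It was lower in all 4 comparisons, at -0.38 ± 0.07 between the induced lines, -0.55 ± 0.07 on withdrawal in WT, -0.93 ± 0.07 on withdrawal in F266A and -0.76 ± 0.07 between the lines without doxycycline (limma adjusted p = 0.00443, 0.000574, 0.000208 and 0.000102).

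Gbx2, a homeobox gene downstream of STAT3, read 7.63 and 7.42 in F266A -dox, 7.31 and 7.20 in F266A +dox, 7.92 and 8.12 in WT -dox and 6.09 and 6.14 in WT +dox. It rose by 1.91 ± 0.10 on withdrawal in WT (limma adjusted p = 4.17e-06) and gave 0.27 ± 0.10 in F266A (limma adjusted p = 0.0734), which 4 alternatives called, quantile normalization among them (0.31, adjusted p = 0.0273). The interaction was -1.63 ± 0.13 (limma adjusted p = 0.000714). Between the lines Gbx2 was higher in F266A with the transgene induced (1.14 ± 0.10, limma adjusted p = 4.14e-05) and lower without it (-0.49 ± 0.10, limma adjusted p = 0.00478). Ier3, an immediate early gene, was higher by 1.21 ± 0.11 in F266A than in WT with the transgene induced (limma adjusted p = 5.72e-05) and by 0.99 ± 0.11 on withdrawal in WT (limma adjusted p = 0.000196). These targets, many of which also answer to inputs other than STAT3, thus included genes higher in the comparisons where Pim2 was higher, as Myc, genes lower in them, as Klf4, and genes that differed in direction among them, as Gbx2.

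**Figure D4:**
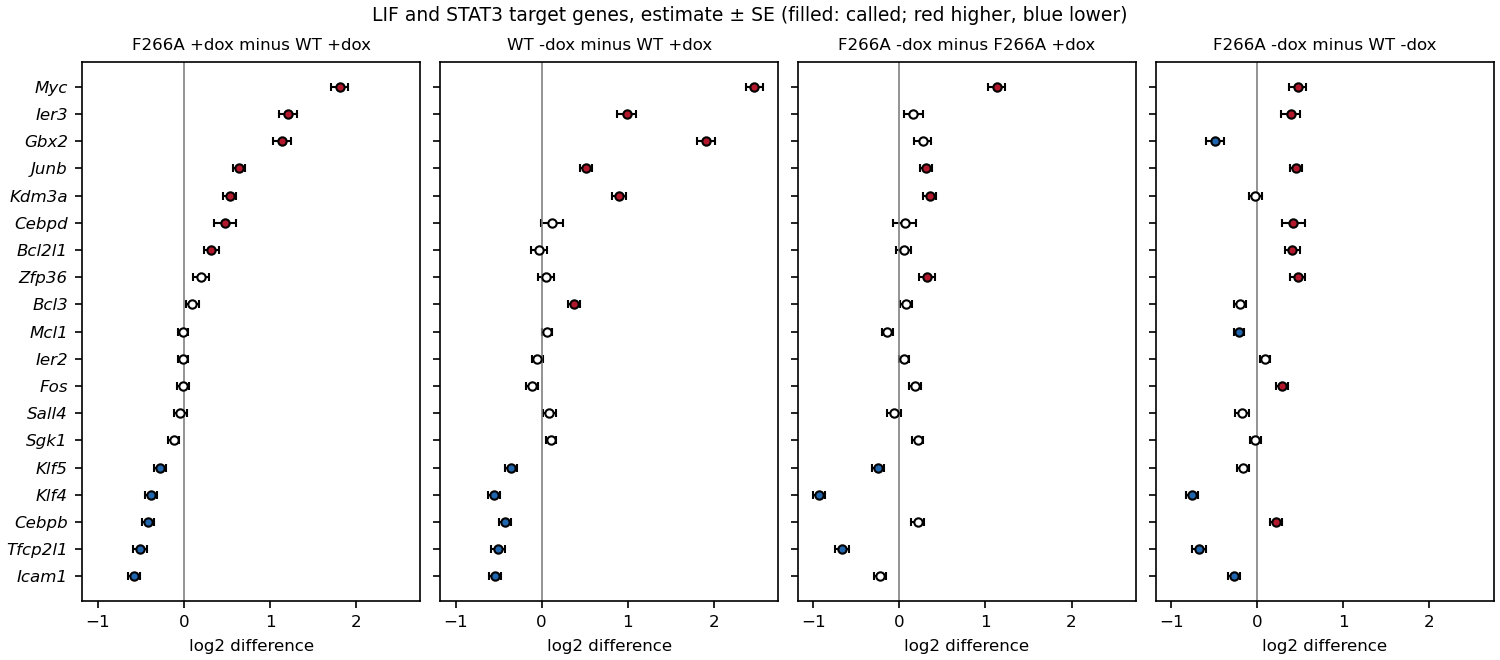
Log2 difference (horizontal axis) of 19 LIF and STAT3 target genes (rows) in the 4 comparisons between groups (panels), as estimate ± SE from the limma fit, with red points called higher, blue points called lower and white points not called. Myc lies at 1.81, 2.47, 1.13 and 0.47 and Klf4 at -0.38, -0.55, -0.93 and -0.76 from the left panel to the right.

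Of 13 LIF family ligands and co-receptors 6 were measured, and none was called on withdrawal in either line. Withdrawal called 31.5% of all genes in WT and 19.5% in F266A. Lif itself read 6.64 and 6.90 in F266A -dox, 6.85 and 6.68 in F266A +dox, 6.25 and 6.25 in WT -dox and 6.32 and 6.35 in WT +dox, so all F266A arrays were above all WT arrays. The difference was 0.43 ± 0.09 with the transgene induced (limma adjusted p = 0.00798) and 0.52 ± 0.09 without it (limma adjusted p = 0.00329), and the first call ended without F266A +dox replicate 1 (0.35, adjusted p = 0.0732). Lif and Socs3 thus parted by line in opposite directions. The cytokine gene Clcf1 was lower between the induced lines (-0.33 ± 0.11, limma adjusted p = 0.0458), which 10 of 17 alternatives did not call, among them no expression filter (-0.18, adjusted p = 0.13), quantile normalization (adjusted p = 0.062) and leaving out any 1 of the 4 arrays compared (adjusted p between 0.114 and 0.185).

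Of 9 other JAK and STAT genes 6 were measured. Stat6 was called lower in all 4 comparisons, with -0.42 ± 0.07 on withdrawal in F266A and -0.43 ± 0.07 between the lines without doxycycline (limma adjusted p = 0.00468 and 0.00226). Its calls between the induced lines (-0.28) and on withdrawal in WT (-0.27) ended without WT +dox replicate 1 (-0.21 and -0.20, adjusted p = 0.114 and 0.12) and without other single arrays of these comparisons. Stat4 was lower in F266A -dox than in WT -dox (-0.63 ± 0.09, limma adjusted p = 0.00114), and Jak2 was higher by 0.42 ± 0.09 (limma adjusted p = 0.00981), a call that ended without WT -dox replicate 1 (0.32, adjusted p = 0.0769) or F266A -dox replicate 2 (0.33, adjusted p = 0.0675). The other 3 were called in none of these comparisons, and the list's medians lay between -0.14 and 0.03.

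Of 14 further negative regulators of JAK and STAT signalling 13 were measured, with 2 called higher and 3 lower between the induced lines, 3 and 2 on withdrawal in WT, 0 and 1 on withdrawal in F266A, and 0 and 3 between the lines without doxycycline. Among all genes, 28.3%, 31.5%, 19.5% and 27.4% were called in either direction in this order. Ptpn6, which encodes the phosphatase SHP-1, read 8.0 and 8.01 in F266A -dox, 7.93 and 7.90 in F266A +dox, 8.43 and 8.30 in WT -dox and 7.67 and 7.68 in WT +dox. It rose by 0.69 ± 0.07 on withdrawal in WT (limma adjusted p = 0.000132) and gave 0.09 ± 0.07 in F266A (limma adjusted p = 0.392). The interaction was -0.60 ± 0.10 (limma adjusted p = 0.0104), and without F266A +dox replicate 1 it was -0.58 (adjusted p = 0.0562). Pias3, an inhibitor that binds STAT3, was lower in F266A than in WT with the transgene induced (-0.48 ± 0.08, limma adjusted p = 0.00279). Pias3 also fell on withdrawal in WT (-0.38 ± 0.08, limma adjusted p = 0.00808), and without WT +dox replicate 1 it was at -0.26 (adjusted p = 0.0533).

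All 7 adaptors of the branch from gp130 to ERK were measured, and 1 or 0 was called in either direction in each comparison. The shares of all genes called were 28.3%, 31.5%, 19.5% and 27.4%. Sos2, a Ras exchange factor gene, fell by 0.43 ± 0.10 on withdrawal in WT (limma adjusted p = 0.0106). The list's medians were 0.12, 0.06, 0.05 and 0.12.

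Of 15 genes for substrates of the PIM kinases, 1 was called higher and 1 lower between the induced lines, 0 and 2 on withdrawal in WT, 0 and 2 on withdrawal in F266A, and 2 and 1 between the lines without doxycycline. Among all genes tested, 15.9% and 12.5%, 16.1% and 15.4%, 8.94% and 10.6%, and 14.0% and 13.4% were called higher and lower in this order. The genes named next are the substrates with the largest changes. Cdkn1b, the gene of the cell cycle inhibitor p27 that PIM kinases phosphorylate, read 9.12 and 9.11 in F266A -dox, 9.51 and 9.53 in F266A +dox, 9.66 and 9.57 in WT -dox and 9.97 and 10.15 in WT +dox. Like Pim3 it was lower in all 4 comparisons, at -0.54, -0.45, -0.41 and -0.50 (each ± 0.08, limma adjusted p = 0.000889, 0.00241, 0.00737 and 0.00145), and no single array decided these calls.

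Cdkn1a, the gene of the related inhibitor p21, read 9.68 and 9.88 in F266A -dox, 9.84 and 9.78 in F266A +dox, 9.08 and 9.09 in WT -dox and 9.89 and 9.83 in WT +dox. Only the WT -dox arrays stood apart, below the others. Cdkn1a fell by 0.78 ± 0.08 on withdrawal in WT (limma adjusted p = 0.00014) and gave -0.03 ± 0.08 in F266A (limma adjusted p = 0.82), with an interaction of 0.75 ± 0.11 (limma adjusted p = 0.008). Irs1, which encodes an adaptor of the insulin receptor, was higher in F266A than in WT with the transgene induced (0.67 ± 0.11, limma adjusted p = 0.0017) and without it (1.19 ± 0.11, limma adjusted p = 7.63e-05).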

How the data were processed

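The authors hybridised total RNA to Affymetrix mouse arrays and normalized them by RMA (justRMA in R 2.11.1 per the labels), and the 45101 deposited log2 values per array were used as given. Of these, 64 are controls, 932 carry several gene symbols and 9160 none, and they were not tested because no single gene is defined. Symbols came from the platform annotation. As in the authors' rules, probe sets above a linear signal of 50 (log2 5.64) in 1 array or more were averaged by gene. Arrays give no read depth, and their number limits the precision: the median SE of a difference was 0.08.

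The 4 group means were estimated in one fit (limma 3.58.1, R 4.3.3), two-sided (4 residual and 5.32 prior degrees of freedom), and p-values were adjusted by Benjamini-Hochberg across the genes of each comparison. The 95% intervals from the same fit are not adjusted. The authors used SAM, which was not installed. Genes of each list were named by largest change, up to 4 called genes per list, and not all of these are printed. The 8 genes, the lists and the markers were chosen with earlier results of these data known. The fit was tested on simulated data. Promoter sequences and coordinates are from RefSeq (GRCm38.p6), with a window for all 8 genes. Alternatives were no filter, a minimum of 100, the brightest probe set of a gene, probe sets taken singly, quantile normalization, median centring, the groups of a comparison alone, a replicate block, another variance prior, array weights, the authors' 2-fold threshold and each array left out. The comparisons of F266A +dox with WT -dox and of F266A -dox with WT +dox and a crossed block were added once the data were known.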

Additional observations from a re-analysis of the deposited data

Results flagged for a closer look

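Of the 8 genes, the pathway lists and the marker lists, 12 genes had a withdrawal difference in F266A that differed from that in WT by the interaction term of the limma fit, among 615 of all 11940 genes tested (5.15%). They were 1 of the 8 genes, 1 of 13 negative regulators, 1 of 15 PIM substrates, 3 of 8 epiblast markers and 1 of 6 neural markers. Of 19 target genes, 4 had a called negative term and 1 a positive one, and the other lists had 0. Pim2 rose on withdrawal by 1.16 in F266A and by 2.09 in WT, a difference of -0.93 ± 0.14 (adjusted p = 0.00923). Gbx2 (-1.63, adjusted p = 0.000714) and Myc (-1.35, adjusted p = 0.00188) had called interactions of the same sign under every setting tried. Those of Ier3 (-0.83, adjusted p = 0.0173) and Ptpn6 (-0.60, adjusted p = 0.0104) had the same sign too. Without F266A +dox replicate 1 the interaction was -0.92 for Pim2 (adjusted p = 0.0524), -0.77 for Ier3 (adjusted p = 0.0854) and -0.58 for Ptpn6 (adjusted p = 0.0562). For Ier3 it also ended without WT +dox replicate 2 (-0.79, adjusted p = 0.0515) or WT -dox replicate 2 (-0.80, adjusted p = 0.0577). Cdkn1a had an interaction of the opposite sign (0.75, adjusted p = 0.008), with -0.03 in F266A and -0.78 in WT. So did the target gene Cebpb (0.64, adjusted p = 0.00968), and Kdm3a was at -0.54 (adjusted p = 0.0306). Of the epiblast and neural markers, Otx2 was at -0.84 (adjusted p = 0.00469), Dnmt3b at -0.77 (adjusted p = 0.0102), Pou3f1 at -0.61 (adjusted p = 0.0294) and Nefm at -0.83 (adjusted p = 0.0496). With 2 arrays a group, no test for an outlying array was possible.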

How the results depend on the processing

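Across 20 alternative settings, 678 of 712 differences of the 8 genes kept their side of the threshold, 20 called ones were lost, 14 were gained and 0 reversed. For the named list genes 1666 of 1770 did, and Gab2 between the lines without doxycycline changed to 0 when the brightest probe set stood for the gene. Without an expression filter 1537 genes were called on withdrawal in F266A and 290 for the interaction. With the trended and robust prior 1110 genes were called for the interaction, and on withdrawal in F266A 5 of the 8 genes and 2933 of all 11940. At 2-fold or more 234, 162, 48, 216 and 61 genes were called (induced lines, withdrawal in WT, withdrawal in F266A, lines without doxycycline, interaction), and of the 8 genes only Pim2 in the first 4 (1 each) and 0 for the interaction. With each array left out in turn, the calls in this order were 1931 to 3511, 2360 to 3918, 1009 to 2268, 1947 to 3227 and 174 to 689 genes, and 2 to 3, 1 to 2, 1 to 4, 4 to 5 and 0 to 1 of the 8 genes. The fewest genes on withdrawal in F266A and for the interaction were called without F266A +dox replicate 1.

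Neither the labels nor the methods state whether the replicate numbers pair samples across groups. Deviations from the group means correlated weakly, at 0.16 and 0.13 within the lines and at -0.18 to -0.11 between them. Such values cannot show whether samples were paired. With the number as a replicate block 3, 2, 3, 5 and 1 of the 8 genes were called, and 3105, 3439, 2079, 2978 and 451 of all genes. A crossed block of the lines, chosen after seeing the data, called 3806, 4201, 2827, 3696 and 895 of all genes. It called 2 of the 8 genes for the interaction, with Lifr added (-0.46, adjusted p = 0.0377). With 2 arrays a group and 1 line per transgene, small differences of dim probe sets could not be resolved, and the causes of these changes were not tested.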
